A study of Mus musculus with 8 samples.

Results

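The genes described here move sodium and calcium across the cell membrane. They were taken as 8 named genes of 33641 in the deposited files: the sodium pump subunits *Atp1b1*, *Atp1b2* and *Atp1b3*, the pump regulator *Fxyd1*, the sodium-calcium exchangers *Slc8a1* and *Slc8a3*, and the plasma membrane calcium pumps *Atp2b1* and *Atp2b4*. All 8 were found by gene symbol, and all 8 passed the filter on low counts. In edgeR's quasi-likelihood test, 0 of the 8 differed between the groups at the threshold used, an adjusted p of at most 0.05 and a fold change of at least 1.5, which 105 of 14851 genes tested (0.707%) passed. The number was also 0 in limma voom, where 157 of the 14851 genes passed. It was 1, *Slc8a3*, in DESeq2's Wald test, where 818 of the 14851 genes passed. At an unadjusted p under 0.05 there was 1 member, *Slc8a3*, against 2531 genes (17%). The groups overlapped for all 8, whereas they did not for 1701 of all genes (11.5%). The largest difference was in *Slc8a3*, which averaged 1.36 ± 1.05 CPM (the count scaled by TMM to a common library total; SD, n = 3) in the control libraries and 0.177 ± 0.131 CPM (SD, n = 5) in the libraries labelled *Adipo-HuR-/-*. In whole tissue, fewer cells of a type and less RNA per cell cannot be told apart.

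The sodium pump uses ATP to push sodium out of the cell and bring potassium in. Its catalytic α subunit needs a β subunit to fold and to reach the membrane, and small FXYD proteins adjust its affinity for ions. Sodium-calcium exchangers spend the resulting sodium gradient to extrude calcium, whereas plasma membrane calcium pumps use ATP to do so directly, so that the activity of both sets bears on the calcium of the cell interior. HuR is an RNA binding protein with a preference for U-rich and AU-rich stretches, found often in the 3′UTR of mRNAs.

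The study asked how loss of HuR in adipocytes alters BAT, the thermogenic fat depot, and sequenced poly(A) RNA of whole interscapular BAT. The mice were C57BL/6 and 28 weeks old. Littermates without a HuR deletion served as controls in the study, some carrying Cre without a floxed allele and some carrying floxed alleles without Cre, and the labels call all 3 control libraries (A7, A8 and A12) wild-type. The other 5 libraries (A24, A25, A26, A29 and A31) are labelled *Adipo-HuR-/-*, that is, floxed HuR deleted by a Cre driven by the adiponectin promoter, which is active in adipocytes and leaves HuR in the other cells of the tissue. Sex and diet are not given library by library. The library names differ, but the labels do not say outright that each is a separate mouse, and p-values measure the spread between libraries.

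Several properties of the libraries bear on all values below. A24 and A25 held 18264754 and 17558090 counts, against 50673814 to 67498055 in the other 6 libraries. The gene targeted in the study, *Elavl1* (chr8:4285382-4325413, minus strand), had a total of 50.6 CPM (A7), 48.0 (A8) and 49.2 (A12), against 61.9 (A24), 47.3 (A25), 43.4 (A26), 61.3 (A29) and 61.2 (A31). These totals cover RNA of all transcripts of the gene in whole tissue, whereas the study assessed HuR protein by Western blot, a different measure. The total was no lower under the *Adipo-HuR-/-* label (log2 fold change 0.16, standard error 0.162, edgeR adjusted p = 0.667). The value was 0.38 with libraries scaled by their totals alone (edgeR adjusted p = 0.296) and 0.46 with the most abundant transcript of each gene alone (edgeR adjusted p = 0.294, and 0.0269 before adjustment in edgeR's quasi-likelihood test), and it was positive in all 19 alternatives. The study's own text and the labels also differ on which group is the larger, and each direction reported here rests on the labels of the libraries.

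Skeletal muscle genes were unevenly present. The summed level of 26 such genes was 4312 CPM (A7), 2659 (A8) and 58.2 (A12), and 49.6 (A24), 38.1 (A25), 28.4 (A26), 55.2 (A29) and 460.3 (A31). All 26 had counts in A7, A8 and A31, and between 15 and 23 had counts in each of the others. Their most abundant gene *Myh4*, a fast myosin heavy chain, had 1048 CPM (A7), 457 (A8) and 106 (A31), at most 0.113 in A12 and A24, and 0 in A25, A26 and A29. The muscle genes therefore differ with the groups in part, being high in 2 of 3 control libraries and 1 of 5 labelled *Adipo-HuR-/-* (two-sided exact permutation p = 0.0714 for the sum). By gene, all 26 had a negative log2 fold change (median −4.64), 23 had an unadjusted p under 0.05 and 1 had groups without overlap. Past the threshold were 3, *Myh7*, *Myl1* and *Myl2* (named after their values were seen), with 8 in DESeq2's Wald test and 0 in limma voom. In edgeR the number was 8 without A12, 1 without A8 and 0 without any other single library.

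Markers of other cells were measured in the same way. All 10 brown adipocyte genes had counts in all 8 libraries, led by *Fabp4* with 6899 to 14538 CPM. The summed level of 8 genes of smooth muscle and mural cells was 426.5 to 455 CPM in the control libraries and 352 to 386 CPM in those labelled *Adipo-HuR-/-*, with no overlap. All 8 had counts in all libraries, and *Rgs5* was the most abundant with 202 to 288 CPM. Of this list, *Des* is also expressed in skeletal muscle and had 121 CPM (A7), 157 (A8) and 56.2 (A12), against 32.8 to 77.5 CPM in the libraries labelled *Adipo-HuR-/-* (*Des* was chosen after its values were seen). Without *Des* the summed level was 334 CPM (A7), 274 (A8) and 370 (A12), against 295 to 339 CPM in those libraries, with overlap. Of the 8 genes 4 had a negative and 4 a positive log2 fold change, with a median of 0.0082. The sums of endothelial (led by *Cdh5*), macrophage (*C1qa*) and erythroid genes (*Hbb-bs*), and of neuronal and Schwann cell genes, overlapped between the groups. The log2 fold change was positive for 8 of 8 endothelial genes (median 0.28, 2 without overlap; 6 to 8 of 8 positive with single libraries left out, and 4 of 8 without A7, A8 and A31, where A12 is the sole control), negative for 5 of 5 erythroid genes tested (median −0.36, 1 without overlap) and negative for 7 of 8 macrophage genes (median −0.43, 0 without overlap). Leaving out A7 or A12 made 4 of 8 macrophage genes negative (medians −0.12 and −0.03), and leaving out A8 made all 8 negative (−0.78). Of the brown adipocyte genes 7 of 10 were negative (median −0.16), or 3 of 10 without A8 (median 0.15), and of the neuronal and Schwann cell genes 2 of 5 tested (median 0.21). With libraries scaled by totals alone, the negative values numbered 0 of 8 endothelial, 5 of 5 erythroid, 5 of 8 macrophage, 1 of 10 brown adipocyte, 0 of 5 neuronal and Schwann cell and 2 of 8 mural genes.

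Long transcripts were less represented in 2 libraries. The median centred log2 CPM of 1390 genes with a transcript of at least 6000 bases, minus that of 927 genes below 1000 bases, was −0.67 in the control library A8 and −0.88 in A24, and lay between −0.07 and 0.57 in the other 6 libraries. One library of each group thus had this property.

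Per length, the regulator and 1 β subunit far exceeded the exchangers. With counts divided by transcript length and scaled to the same sum in each library, *Fxyd1* had the highest level, 256.4 ± 60.4 (SD, n = 8 libraries), followed by *Atp1b3* with 84.5 ± 5.51 and *Atp1b1* with 14.9 ± 4.52. On the same scale, *Atp2b1* had 5.32 ± 1.66, *Atp2b4* 3.77 ± 1.79 and *Atp1b2* 3.69 ± 1.72, and the exchangers *Slc8a3* and *Slc8a1* had 0.227 ± 0.310 and 0.0913 ± 0.0868. The per-length ranges over the 8 libraries were separate between *Fxyd1* and *Atp1b3*, between *Atp1b3* and *Atp1b1*, and between *Atp1b2* and *Slc8a3*. The other neighbours overlapped in range, although *Atp1b1* was above *Atp2b1* in all 8 libraries and *Atp2b1* above *Atp2b4* in 7, whereas *Atp2b4* was above *Atp1b2* in 4 of 8 and *Slc8a3* above *Slc8a1* in 6, or in 5 without the short transcript Slc8a3-204.

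Of the 105 genes past the threshold, 69 (0.465% of those tested) had less and 36 (0.242%) had more RNA under the *Adipo-HuR-/-* label. Among the members, 6 had a negative and 2 a positive log2 fold change, with a median of −0.12 beside 0.00098 for all genes. The median of the members was −0.08 without A7, −0.36 without A8, −0.07 without A12, −0.25 without A26 and −0.05 without A24 and A25. With libraries scaled by their totals alone the median of all genes was 0.23, 25 genes were past the threshold with less RNA and 96 with more, and 3 members had a negative and 5 a positive value (median 0.0566). Members past the threshold in edgeR numbered 0 without A24 and A25 (5 genes in all, 2 members at an unadjusted p under 0.05). The number was also 0 without A8 (145 genes, 3 members at that p) and without A8 and A24 (202 genes, 2 members).

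**Figure D1:**
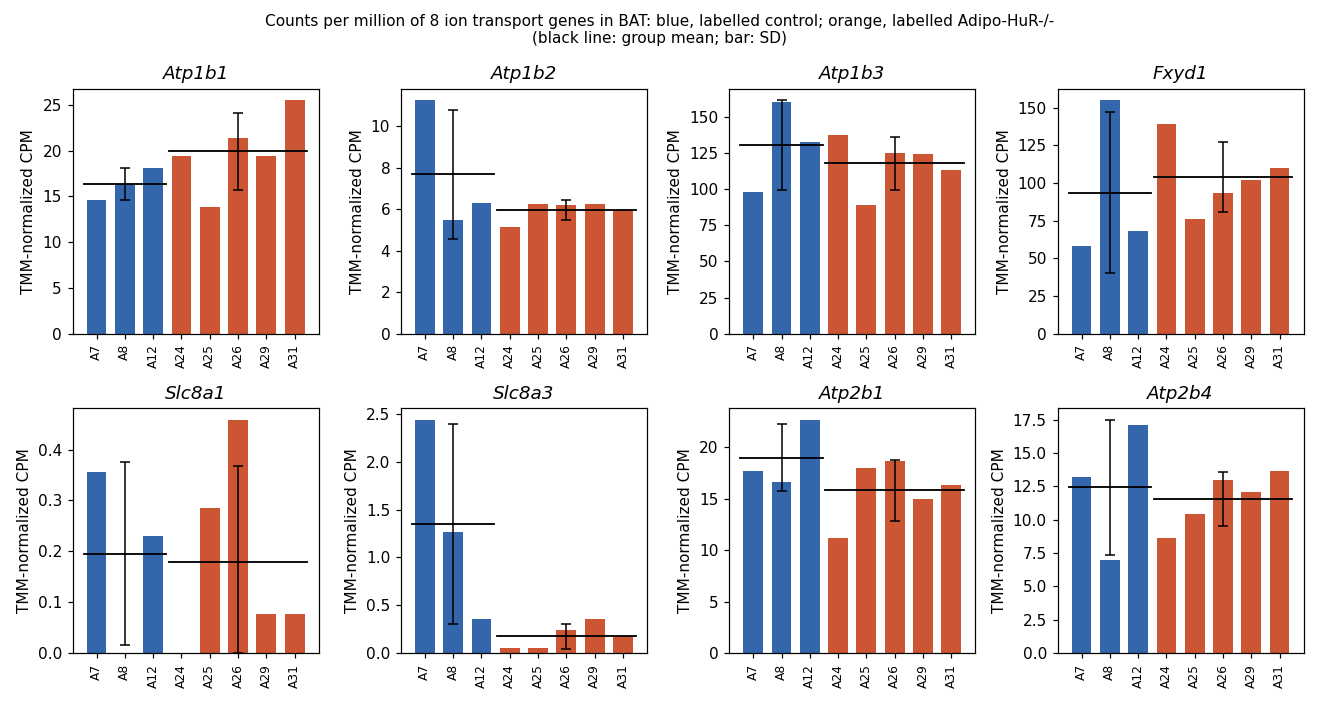
TMM-normalized CPM (vertical axes, each from 0) of the 8 members in the 8 BAT libraries (horizontal axes), with blue bars for control libraries and orange for those labelled *Adipo-HuR-/-*, black lines for group means and whiskers for SD. The groups overlap in all 8 panels, and *Slc8a3* has its highest bars in A7 (2.45 CPM) and A8 (1.27 CPM).

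The β subunits were measured at moderate to high levels, in the order *Atp1b3*, *Atp1b1* and *Atp1b2* per length. *Atp1b3* (chr9:96332655-96364442, minus strand), a β isoform of many tissues, had 98.2 CPM (A7), 160 (A8) and 133 (A12). In the libraries labelled *Adipo-HuR-/-* it had 138 CPM (A24), 88.8 (A25), 125 (A26), 124 (A29) and 114 (A31). The extremes A8 and A25 lay in different groups, and the other 6 lay between 98.2 and 138 CPM. Its log2 fold change was −0.15 (standard error 0.197, edgeR adjusted p = 0.759). Of the 31-base words of its main transcript 19.5% occur in other genes, nearly all in *Gm1848*, which had 4 counts over all libraries.

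*Atp1b1* (chr1:164437109-164458355, minus strand), the β isoform of epithelia and many other tissues, had 14.6 CPM (A7), 16.4 (A8) and 18.2 (A12). It had 19.4 CPM (A24), 13.8 (A25), 21.4 (A26), 19.5 (A29) and 25.5 (A31). Thus 4 of the 5 libraries labelled *Adipo-HuR-/-* were above every control, and A25 was below every control. Its log2 fold change was 0.29 (standard error 0.193, edgeR adjusted p = 0.497, two-sided exact permutation p = 0.214 for the CPM), and 0.43 without A24 and A25 (edgeR adjusted p = 0.315) and 0.0303 without A7, A8 and A31, where A12 is the sole control. The adjusted p lay between 0.208 and 0.792 over the alternatives with at least 2 controls. *Atp1b1* overlaps *Nme7* on the opposite strand (3.56 to 5.47 CPM), and whether the counting used strand is not given in the sources used here, so that reads of the overlap cannot be told apart.

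*Atp1b2* (chr11:69599736-69605942, minus strand), a β isoform best known from brain, where it acts in cell adhesion, had 11.3 CPM (A7), 5.49 (A8) and 6.29 (A12). The libraries labelled *Adipo-HuR-/-* had 5.13 CPM (A24), 6.26 (A25), 6.21 (A26), 6.25 (A29) and 5.97 (A31). A7 was the high library, and the other 7 lay between 5.13 and 6.29 CPM. The log2 fold change of −0.36 (standard error 0.238, edgeR adjusted p = 0.478) was 0.0171 without A7.

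As shares of the β family per length, *Atp1b3* made up 84.5 ± 5.14% (SD, n = 3) of the level in the control libraries and 80.8 ± 2.86% (SD, n = 5) in those labelled *Adipo-HuR-/-*, and *Atp1b1* 11.4 ± 2.64% (SD, n = 3) and 15.9 ± 2.55% (SD, n = 5). Library by library, the share of *Atp1b1* was 13.9% (A7), 8.63% (A8) and 11.7% (A12), and 13.4% (A24), 16.2% (A25), 16.2% (A26), 13.9% (A29) and 19.9% (A31). A7 lay among the libraries of the other label, and the groups overlapped (exact permutation p = 0.0714, two-sided). *Atp1b4* had at most 0.0430% in any library, with 7 counts in A7, 5 in A31, 1 in A26 and 0 in the other 5.

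*Fxyd1* (chr7:31051678-31057199, minus strand) encodes phospholemman, a regulator of the sodium pump known from heart and skeletal muscle. It had 58.0 CPM (A7), 155 (A8) and 68.1 (A12), and 139 (A24), 76.0 (A25), 93.3 (A26), 102 (A29) and 110 (A31). The 2 high libraries were A8 and A24, those with few long transcripts, and *Fxyd1*, with a main transcript of 568 bases, is the shortest of the members. With all libraries the log2 fold change was 0.15 (standard error 0.316, edgeR adjusted p = 0.848), and without A8 and A24 it was 0.60 (standard error 0.183, edgeR adjusted p = 0.114, in a range of 0.114 to 0.991 over the alternatives). With single libraries left out, the log2 fold change was −0.10 without A7, −0.03 without A12, 0.0125 without A24 and 0.73 without A8. The part of transcript length in these values was not tested. Within the FXYD family, *Fxyd1* made up 88.8 to 96.7% of the per-length level in every library, with *Fxyd5* between 2.42 and 8.54% (named after its values were seen).

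*Slc8a3* (chr12:81197915-81333180, minus strand) encodes NCX3, an exchanger known mainly from skeletal muscle and brain, and was a low-count gene with 267 counts over all libraries. The control libraries had 151 counts (A7), 50 (A8) and 17 (A12), or 2.45, 1.27 and 0.355 CPM. The other libraries had 1 count (A24), 1 (A25), 16 (A26), 19 (A29) and 12 (A31), or 0.0564, 0.0474, 0.237, 0.360 and 0.182 CPM. A7 and A8 were far above the remaining 6 libraries, A29 was just above the control library A12, and 4 of 5 libraries labelled *Adipo-HuR-/-* were below every control. *Slc8a3* overlaps the antisense gene *Gm3693*, for which no counts were used here.

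The log2 fold change of *Slc8a3* was −2.78 (standard error 0.655), with p = 0.0016 before and 0.0810 after adjustment in edgeR's quasi-likelihood test, and a two-sided exact permutation p of 0.0714 for the CPM. The single counts in A24 and A25 are under the 3 counts taken as the limit of detection (0.169 and 0.142 CPM), and the 95% Poisson interval of A24, 0.00143 to 0.314 CPM, overlaps that of A12, 0.207 to 0.569 CPM. These intervals cover counting error only.

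The libraries with most *Slc8a3* were those with most skeletal muscle genes, A7 and A8. A31, with 460.3 CPM of muscle genes, had 0.182 CPM of *Slc8a3*, within the range of the 5 libraries with less than 60 CPM of muscle genes. With a score of the 26 muscle genes as a covariate the log2 fold change was −1.44 (edgeR adjusted p = 0.513), and without A7, A8 and A31 it was −0.84, with A12 as the sole control and all spread from the other group. Over the alternatives it lay between −3.22 and −0.84, with adjusted p from 0.00368 to 0.513 in those with at least 2 controls, and it was past the threshold without A12 (−3.22, edgeR adjusted p = 0.0309). Beyond these values, the part of muscle RNA in this difference was not tested.

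**Figure D2:**
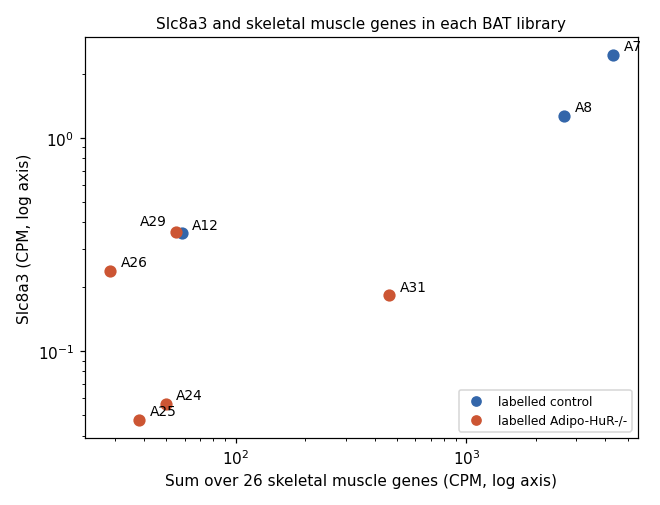
*Slc8a3* (CPM, log axis) against the summed level of 26 skeletal muscle genes (CPM, log axis) in each of the 8 BAT libraries, blue for control and orange for *Adipo-HuR-/-* labels. A7 and A8 are high on both axes. A31 has 460.3 CPM of muscle genes, less than A8 with 2659 CPM, and 0.182 CPM of *Slc8a3* (95% Poisson interval 0.0939 to 0.318 CPM).

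Set against the mitochondrial sodium-calcium exchanger *Slc8b1*, a ratio within each library that does not depend on scaling (chosen after values were seen), *Slc8a3* had 18.0 (A7), 15.5 (A8) and 3.83 (A12) counts per 100 counts of *Slc8b1*. The ratio was 0.461 (A24), 0.328 (A25), 1.88 (A26), 3.20 (A29) and 1.36 (A31). The values of A12 and A29 were close, and those 2 libraries had 0.355 and 0.360 CPM of *Slc8a3* and 9.28 and 11.3 CPM of *Slc8b1*, so that their order on this ratio comes from *Slc8b1*. *Slc8b1* was above its control mean in all 5 libraries labelled *Adipo-HuR-/-* (log2 fold change 0.30, standard error 0.189, edgeR adjusted p = 0.454). Only 1 of them was above every control, since A7 had 13.6 CPM, and the groups overlapped. The log2 fold change of *Slc8b1* was 0.55 without A7 and 0.16 without A8. Per length, *Slc8a3* made up 9.54% of the sodium-calcium exchanger family (A7), 8.44% (A8) and 5.92% (A12), and 0.285% (A24), 0.325% (A25), 1.62% (A26), 1.83% (A29) and 0.760% (A31). In A12, 79.0% of this per-length level comes from 5.81 estimated counts given to a transcript of 673 bases, Slc8a3-204. Without that transcript, left out after its values were seen, the share was 8.37% (A7), 8.44% (A8) and 1.30% (A12), and 0.285 to 1.83% in the libraries labelled *Adipo-HuR-/-*, with overlap. With it the groups did not overlap on 2 of 23 such shares computed over 5 families, this one and that of *Slc8b1* (11.5% of all genes had no overlap in CPM), and without it they overlapped on both. The share of *Slc8b1*, with all transcripts, was 90.5 ± 1.98% (SD, n = 3) and 97.6 ± 1.53% (SD, n = 5), and the 2 are not independent, since the shares sum to the whole.

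*Slc8a1* (chr17:81373105-81738377, minus strand), the NCX1 exchanger of heart and many other cells, had 79 counts in all. Per length, it averaged 0.0863 ± 0.0892 (SD, n = 5) in the libraries labelled *Adipo-HuR-/-*, where *Slc8a3* had 0.0632 ± 0.0415 (SD, n = 5). The control libraries had 22 counts (A7), 0 (A8) and 11 (A12), and the others 0 (A24), 6 (A25), 31 (A26), 4 (A29) and 5 (A31). The highest library was A26, the library with most counts, at 0.459 CPM. For the 0 counts of A8 and A24, the 3 counts of the limit of detection correspond to 0.0760 and 0.169 CPM, and the 95% Poisson upper limits are 0.0934 and 0.208 CPM. At these counts the log2 fold change was −0.10 (standard error 0.994, edgeR adjusted p = 0.970), and it was −0.41 without A8 and A24. The sign turned in 7 of 18 alternatives, among them 0.64 without A7 and 1.28 with the most abundant transcript alone, and without A26 the value was −0.96 (adjusted p from 0.709 to 0.999 over the alternatives). All 22 counts of A7 were assigned to a transcript that starts in the exon chr17:81647809-81649607, whereas nearly all counts of the other libraries were assigned to one that starts in the exon chr17:81738309-81738377. At 79 counts this division is uncertain. A8 and A24, both at 0, are also the libraries with the fewest long transcripts. The main transcript of *Slc8a1* has 3180 bases, below the 6000 bases taken as long. The part of transcript length in these zeros was not tested.

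The calcium pumps are long transcripts at intermediate level. *Atp2b1* (chr10:98914406-99026143, plus strand), the most widely expressed isoform, had 17.7 CPM (A7), 16.6 (A8) and 22.7 (A12), and 11.2 (A24), 18.0 (A25), 18.7 (A26), 15.0 (A29) and 16.3 (A31). A24 was the lowest and A12 the highest library, and the others lay between 15.0 and 18.7 CPM. Its log2 fold change was −0.26 (standard error 0.190, edgeR adjusted p = 0.532). Its words overlap with those of other genes to 3.38%, mostly with *Gm29808*, which had 0 counts.

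*Atp2b4* (chr1:133699457-133801041, minus strand), an isoform known from smooth muscle, red cells and sperm, had 13.2 CPM (A7), 6.99 (A8) and 17.1 (A12), and 8.63 (A24), 10.4 (A25), 13.0 (A26), 12.1 (A29) and 13.7 (A31). The lowest libraries were A8 and A24, those with few long transcripts. *Atp2b1*, with a main transcript of 7130 bases, had 16.6 CPM in A8 and 11.2 in A24. The part of transcript length in these values was not tested. Control libraries held both the lowest and the highest value of *Atp2b4*. The value of −0.10 for its log2 fold change (standard error 0.267, edgeR adjusted p = 0.885) was −0.30 without A8 and A24 (edgeR adjusted p = 0.341) and 0.0515 without A24 and A25 (edgeR adjusted p = 0.960), in a range of 0.321 to 0.981 over the alternatives. *Atp2b1* and *Atp2b4* made up 58.8 ± 7.41% and 40.3 ± 7.32% (SD, n = 3) of the calcium pump family per length in the control libraries, and 60.2 ± 13.0% and 39.2 ± 13.0% (SD, n = 5) in the others, with *Atp2b2* and *Atp2b3* at or below 1.02%.

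With the libraries pooled, most counts of each member were assigned to 1 transcript. The most abundant transcript held 99.8% of the counts of *Atp1b3*, 88.2% of *Slc8a3*, 87.8% of *Atp2b1*, 86.5% of *Atp1b1*, 81.4% of *Atp1b2*, 72.3% of *Fxyd1*, 72.2% of *Slc8a1* and 71.0% of *Atp2b4*. Library by library, the share of this transcript was 0% for *Slc8a1* in A7, near or at 100% in the other 5 libraries with counts, and for *Slc8a3* 0% in A24 and A25 (1 count each) and 66.0 to 100% in the others. For the other 6 members it was at least 57.2% in each library. These shares rest on the division of reads between transcripts made before deposition. Among 31 transcripts of the members with at least 100 counts, none differed in its share of the gene without overlap between the groups, and 2 differed in CPM without overlap, both retained-intron transcripts of *Fxyd1*. Of all 36236 transcripts with such counts, 2829 (7.81%) had CPM without overlap. In the 2 of *Fxyd1*, Fxyd1-216 had 1.52, 1.64 and 1.39 CPM in A7, A8 and A12, and between 1.69 and 2.35 CPM in the libraries labelled *Adipo-HuR-/-*. Fxyd1-209 had 0.440, 0.211 and 0.504 CPM in the control libraries and 0.611 to 1.68 in the others.

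A shorter *Atp1b1* transcript, picked after its values were seen, varied widely between libraries. Atp1b1-203, with 3 exons and a coding part of 132 codons against 304 in the main transcript, had 158 counts (A7), 0.270 (A8) and 3.86 (A12). It had 39.8 counts (A24), 69.2 (A25), 184 (A26), 77.8 (A29) and 234 (A31). Counts were thus assigned to it in all 5 libraries labelled *Adipo-HuR-/-* and in A7, with few in A8 and A12 (0.882 ± 1.45 CPM, SD, n = 3, against 2.65 ± 0.831 CPM, SD, n = 5, two-sided exact permutation p = 0.107). Atp1b1-204, which ends in the same exon (chr1:164441459-164441641), had 31.3 counts in A8 and 50.9 in A12, 0.01 in A7 and 0 in A25. In the other libraries it had 7.69 to 39.9 counts. The low values of Atp1b1-203 in A8 and A12 cannot be told apart from a different division of reads.

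In *Atp2b4*, 1 transcript, also picked after its values were seen, carries an additional exon of 191 bases, the 20th from the 5′ end (chr1:133711632-133711822), and codes for 1166 codons, whereas the main transcript without it codes for 1205. The form with this exon had 175 counts in A7, 155 in A26, 64.3 in A29 and 101 in A31, and 0 in A8, A12, A24 and A25. Both groups thus held libraries with and without counts assigned to it, and the share of the main transcript ranged from 57.2% in A26 to 90.6% in A12. A24 and A25 had 153 and 219 counts of *Atp2b4* in all, and an estimate of 0 does not show that the transcript is absent.

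The 3′UTR of each main transcript was searched for the pentamer ATTTA on the transcript strand, a core of AU-rich elements. Of 13454 tested genes with an annotated 3′UTR, 66.3% held at least 1, with a median density of 1.19 per kilobase. Among the members 7 of 8 held it, all except *Fxyd1*, whose 3′UTR has 168 bases. *Atp1b3* had 5 in 869 bases (5.75 per kilobase, above 95.4% of genes) and *Atp1b1* 6 in 1167 bases (5.14 per kilobase, above 93.8%). *Slc8a1* had 1 in 167 annotated bases (5.99 per kilobase, above 95.8%), *Atp2b1* 7 in 3024, *Atp2b4* 8 in 4017, *Atp1b2* 1 in 1512 and *Slc8a3* 1 in 1576 (0.635 per kilobase). The *Slc8a1* transcript searched ends at chr17:81388524, whereas the annotated gene runs on to chr17:81373105. Bases beyond that transcript were not searched, and the density of *Slc8a1* rests on 1 match in a short stretch. The member with the largest difference between groups, *Slc8a3*, had a density above 38.3% of genes. The log2 fold changes of *Atp1b3* and *Atp1b1* were −0.15 and 0.29. Any relation between density and difference was not tested. A match is a description of the sequence.

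One window of 25 bases is given for 4 of these genes, *Slc8a3* for its difference and the others for their density. The windows are written 5′ to 3′ on the transcript strand, with the pentamer in capitals, from GRCm38: *Atp1b1* at chr1:164437358-164437382, *Atp1b3* at chr9:96332910-96332934, *Slc8a1* at chr17:81388655-81388679 and *Slc8a3* at chr12:81199264-81199288, all on the minus strand and in the 3′UTR of the last exon.
Atp1b1: agaattttatATTTAtgcagttgta
Atp1b3: tgtagtacatATTTAaaaatactat
Slc8a1: gatatagtaaATTTAtatatatata
Slc8a3: tgtccaaagtATTTAattaaaaaca
The windows hold 20, 21, 23 and 20 bases of A or T among 25. The pentamers of *Slc8a1* and *Slc8a3* are the only ones in the 3′UTR of the transcript searched, which for *Slc8a1* ends before the annotated gene does. The window of *Slc8a3* begins at base 203 after the stop codon.

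Other genes of the same transport systems gave the setting. A list of 33 further genes of the sodium pump, the sodium-calcium exchangers, the calcium pumps and sodium entry had 23 tested, of which 0 were past the threshold in edgeR, in DESeq2's Wald test or in limma voom. Of the 23, 15 had a negative and 8 a positive log2 fold change, with a median of −0.35 beside 0.00098 for all genes, and 13 and 10 with a median of −0.13 when libraries were scaled by totals alone. The median was −0.05 without A12 (14 negative and 9 positive) and −0.10 with the muscle score as covariate (13 and 10). The unadjusted p was under 0.05 for 4 of them, which include *Fxyd6*, *Slc24a3* and *Scn4a* (17% of all genes had such a p). *Scn4a*, the sodium channel of skeletal muscle, had 10.9 CPM (A7), 4.20 (A8) and 1.35 (A31), and at most 0.190 in the other 5 libraries (log2 fold change −3.76, standard error 1.35, edgeR adjusted p = 0.193). With the muscle score as covariate its log2 fold change was 1.49 (edgeR adjusted p = 0.500, in a range of 0.0896 to 0.819 over the alternatives). These 3 libraries are those with most counts of skeletal muscle genes. *Fxyd6* had 2.35 CPM (A7), 2.10 (A8) and 0.146 (A12), the lowest of all libraries, and 0.332 to 0.756 in the others. Its log2 fold change was −1.44 (standard error 0.642, edgeR adjusted p = 0.290). With the muscle score as covariate it was 0.77 (edgeR adjusted p = 0.734), and without A12, the low control, it was −1.97, past the threshold (edgeR adjusted p = 0.0306).

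The summed level of the β family per length was 97.3 ± 12.4 (SD, n = 3) in the control libraries and 106.5 ± 6.61 (SD, n = 5) in those labelled *Adipo-HuR-/-*, with overlapping ranges.

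Of the 23 genes, the groups did not overlap for 1 alone (11.5% of all genes had such groups), *Slc24a3*, a potassium-dependent sodium-calcium exchanger. It had 176 CPM (A7), 151 (A8) and 143 (A12), and 122 (A24), 120 (A25), 142 (A26), 131 (A29) and 100.2 (A31). A26 was just below A12, and the log2 fold change was −0.35 (standard error 0.156, edgeR adjusted p = 0.292) with all libraries and −0.13 with scaling by totals alone. With 51.1 ± 13.1 per length (SD, n = 8), *Slc24a3* was the highest of the listed exchangers, far above *Slc8b1* (6.33 ± 2.30), *Slc8a3* and *Slc8a1* on that scale. Basigin (*Bsg*), a partner of calcium pumps, had the highest per-length level of its list, 721 ± 142 (SD, n = 8; log2 fold change −0.10, standard error 0.260, edgeR adjusted p = 0.883), and the sodium-bicarbonate cotransporter *Slc4a4* the highest of sodium entry, 50.2 ± 15.7 (SD, n = 8; log2 fold change −0.39, standard error 0.277, edgeR adjusted p = 0.512).

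For the 2 members with a log2 range over 2 among the libraries, the genes with the most similar profile were found among 11849 genes, by the root mean square difference of centred log2 CPM over 8 libraries. For *Slc8a3* these were *Synpo2l* (0.595), *Gldn* (0.653) and *Lrtm1* (0.660). *Synpo2l* had 3.93 CPM (A7), 2.35 (A8) and 0.418 (A12) and between 0.113 and 0.530 in the others, with overlap (log2 fold change −2.76, edgeR adjusted p = 0.0725). *Gldn* had 57.7 CPM (A7), 17.6 (A8) and 18.3 (A12) and between 1.61 and 6.19 in the others, without overlap, and fell by 3.24 on the log2 scale (edgeR adjusted p = 0.0228). *Lrtm1* had 2.87, 2.28 and 1.99 CPM in the control libraries and at least 0.169 in the others, all 5 of them below every control, and fell by 2.78 (edgeR adjusted p = 0.0193). For *Slc8a1* they were *Dgkh* (0.462), *Zfp871* (0.522) and *Ppara* (0.553), and each of these had its lowest CPM in A8 or A24.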

How the data were processed

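RNA-seq of BAT was analysed from 8 libraries, 3 labelled wild-type and 5 labelled *Adipo-HuR-/-*. Per transcript, estimated counts without normalization on GRCm38 were deposited by the authors. Reads were mapped with CLC Genomics Workbench according to the study's methods, and the program that wrote these estimated counts is not given in the sources used here. Estimated counts were summed for each gene symbol and rounded to whole numbers, and 79.1% of the sums lay within 0.02 of a whole number. Genes were filtered with filterByExpr, scaled by TMM (factors 0.763 to 1.20) and compared by the quasi-likelihood F-test of edgeR 4.0.16 in R 4.3.3, with Benjamini-Hochberg adjustment over all genes tested. The standard error is the log2 fold change divided by the square root of F. For single values, exact permutation tests (two-sided) enumerated all 56 splits. The level per length is each transcript's count divided by its length in GENCODE M21, summed per gene and scaled to the same sum in each library. That annotation holds 99505 of the 105129 transcript identifiers with version and 103635 without, and gave the positions and 3′UTRs. Python 3.11.15, numpy 2.4.6, pandas 2.3.3, scipy 1.17.1 and matplotlib 3.10.9 were used. The fits across genes were tested on simulated data.

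Named genes are the members, *Elavl1*, genes of the pathway lists that were past the threshold, had groups without overlap or had the highest level per length of their list, the most abundant gene of each marker list, and the 3 genes nearest in profile to each member with a log2 range over 2. Other names answer a count or are stated to be picked with their values known. The members, lists and tests were chosen with earlier results of these data known. Alternatives were the size factors and Wald test of DESeq2 1.42.0, library totals alone, voom with sample quality weights in limma 3.58.1, the omission of the filter, a minimum of 10 counts in every library, a muscle gene score as covariate, the most abundant transcript alone, and libraries left out. Leaving out A8 and A24, the comparison of long with short transcripts, the shares within families and the ratio to *Slc8b1* were chosen after seeing the data. No library was identical to another. Some genes that fall under the rule for named genes are not reported here. Measurements of protein and physiology were not analysed here.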

Additional observations from a re-analysis of the deposited data

Results flagged for a closer look

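*Atp1b2* had 5.13 CPM in A24, apart from the other 4 libraries labelled *Adipo-HuR-/-*, which lay between 5.97 and 6.26 CPM. It stood out because its gap to the nearest library was 0.739 of the whole range of the group, above the 95% limit of Dixon's test for 5 libraries. Chance alone marks about 1 in 20 groups, and 9 groups were examined, those of the 8 members and *Elavl1*. Groups of 3 libraries are too small for this comparison.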

How the results depend on the processing

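No paired analysis was possible because the groups share no replicate numbers. The number of genes past the threshold, 105 with all libraries, was 818 in DESeq2's Wald test, 15 with the muscle score as covariate, 16 with the most abundant transcript alone, 5 without A24 and A25, 4 without A7, A8 and A31 (A12 is then the sole control, and the spread comes from the other group) and 202 without A8 and A24, and 10 to 190 with single libraries left out. The number of members past it, 0, was 1 in DESeq2's Wald test and 0 to 1 with single libraries left out, in both cases *Slc8a3* (log2 fold change −2.83, adjusted p = 0.00368 in DESeq2, and −3.22, adjusted p = 0.0309 in edgeR without A12, in a range of adjusted p from 0.00368 to 0.513 with at least 2 controls). With totals alone, which moved the median of all genes to 0.23, the sign turned for *Atp1b3* (0.10), *Slc8a1* (0.0239) and *Atp2b4* (0.0893). It also turned for *Slc8a1* with the most abundant transcript (1.28) and, without A24 and A25, for *Slc8a1* (0.0166) and *Atp2b4* (0.0515). With single libraries left out, it turned for *Atp1b2* without A7 (0.0171), *Atp1b3* without A8 (0.0354), *Fxyd1* without A7 (−0.10) or A12 (−0.03), *Slc8a1* without A7 (0.64), A24 (0.12), A29 (0.12) or A31 (0.13), and *Atp2b4* without A12 (0.20). Over these omissions the log2 fold change lay between 0.17 and 0.39 for *Atp1b1*, −0.55 and 0.0171 for *Atp1b2*, −0.32 and 0.0354 for *Atp1b3*, −0.10 and 0.73 for *Fxyd1*, −0.96 and 0.64 for *Slc8a1*, −3.22 and −2.04 for *Slc8a3*, −0.35 and −0.11 for *Atp2b1* and −0.38 and 0.20 for *Atp2b4*. *Atp1b1* and *Atp2b1* kept their sign in all 19 alternatives and *Slc8a3* in its 18. With totals alone the value was 0.51 for *Atp1b1* and −0.03 for *Atp2b1*. Without A7, A8 and A31 it was 0.0303 for *Atp1b1* and −0.53 for *Atp2b1*. The filter of at least 10 counts in every library left *Slc8a1* and *Slc8a3* without a value. The causes were not tested. Depth limits the exchangers most, with 79 and 267 counts in all, and the share given to each transcript depends on a division of reads that cannot be repeated from counts.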
